A study of Mus musculus with 24 samples.

Results

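The mRNA levels of 9 genes that sense or handle nucleic acids, namely Cgas, Sting1 (older name Tmem173), Tbk1, Zbp1, Trex1, Samhd1, Mavs, Tlr9 and Rnaseh2b, were followed in mouse splenic CD4+ T cells. The genes were named by symbol, and they are 9 of the 54446 gene identifiers in the table of counts. The 6 donor mice had the C57BL6 background. Mice 1, 3 and 4 of the wild type (WT) formed one genotype, and mice 1, 2 and 4 with the genotype AIM2-/- (written Aim2-/- here) the other. Each mouse gave 4 libraries, 1 from unstimulated cells (0 h) and 3 from cells cultured in RP10 medium for 3, 6 or 24 h with anti-CD3/CD28 stimulation, which acts on the T cell receptor and on a costimulatory receptor. This made 8 groups of 3 libraries. The labels give the loss of AIM2 no limit to one cell type and state no age. The design asks how these mRNAs change after T cell receptor stimulation, whether they differ in cells that lack AIM2, itself a receptor for cytosolic DNA, and whether the response to stimulation differs between the genotypes.

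The 9 genes belong to connected routes. The enzyme cGAS, encoded by Cgas, binds DNA in the cytosol and makes the messenger cGAMP, which binds STING, the product of Sting1, on the endoplasmic reticulum. STING recruits the kinase TBK1, which phosphorylates the transcription factor IRF3 and so starts type I interferon production. MAVS is the mitochondrial adaptor through which the RNA sensors RIG-I and MDA5 reach the same kinase, TLR9 detects DNA in endosomes and is best known from B cells and plasmacytoid dendritic cells, and ZBP1 binds nucleic acids in the Z conformation and engages the kinase RIPK3. TREX1, a DNA exonuclease, SAMHD1, a hydrolase of deoxynucleotide triphosphates, and RNASEH2B, a subunit of the RNase H2 complex that removes ribonucleotides from DNA, limit the nucleic acids that could reach these receptors. In humans, inherited loss of any of these last genes causes an interferon-driven disease, Aicardi-Goutières syndrome. Several of the 9 genes are themselves induced by interferon.

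The 24 libraries held 19715161 to 21627018 counts. On plain library totals, 3 counts, taken as the floor of detection, corresponded to 0.139 to 0.152 CPM (counts scaled to a common library total). The levels below use library sizes scaled by TMM factors, on which 3 counts of Tlr9 in WT mouse 3 at 0 h were 0.155 CPM. Aim2 was at 75.0 and 67.5 CPM at 0 h in WT mice 3 and 4 and between 15.7 and 20.1 CPM in the Aim2-/- mice, but the mouse labelled WT 1 had 21.5 CPM. That mouse also lay within or next to the Aim2-/- range in stimulated cells, with 17.0 CPM against 14.6 to 15.1 at 3 h, 11.5 against 8.18 to 11.4 at 6 h and 5.57 against 5.28 to 7.15 at 24 h. Its libraries therefore go against their label, labels were kept as given, and the comparisons of the members and of their partner lists were also run without them. The 6 markers of CD4 T cells summed to between 2494 and 3951 CPM in all libraries. The 8 B cell markers summed to 4.52 to 15.1 CPM in WT and 6.10 to 49.7 CPM in Aim2-/- libraries, and the 8 myeloid markers to 11.0 to 58.9 and 24.6 to 370 CPM, respectively. Aim2-/- mouse 1 had the highest B cell and myeloid sums at each of the 4 times.

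Of the 9 genes, 8 had counts and passed the filter on low counts, while Trex1 had 0 counts in all 24 libraries. In the annotation of the same build, GRCm38, Trex1 lies on chromosome 9 (chr9:109057933-109059734, minus strand), and all 1147 of its exon bases also belong to exons of Atrip, on the same strand. Atrip, a partner of the DNA damage kinase ATR, had 25.3 to 43.5 CPM. How the authors counted reads that match both genes is not given in the sources used here, so the listed 0 says nothing about Trex1 mRNA, and the gene is left out of all comparisons. Cgas (chr9:78430526-78443237, minus strand) shares 201 exon bases with Gm8093, and Rnaseh2b (chr14:62292589-62372992, plus strand) shares 66 with Dleu7, both on the opposite strand. The other members share no exon base with another gene. Besides Sting1, whose position is given with its values, they are Tbk1 (chr10:121546455-121586787, minus strand), Zbp1 (chr2:173206612-173218923, minus strand), Samhd1 (chr2:157097533-157135265, minus strand), Mavs (chr2:131234063-131248025, plus strand) and Tlr9 (chr9:106222598-106226883, plus strand).

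Promoter sequences from RefSeq (GRCm38.p6), reaching from 250 bases before to 50 bases after a gene's start, were at hand for 6 members, Cgas, Tbk1, Trex1, Samhd1, Mavs and Tlr9. They were searched on both strands for 4 motifs of factors that act in interferon, T cell receptor or cell cycle responses: the interferon-stimulated response element (ISRE, GAAA and GAAA parted by 2 bases), AP-1 (TGANTCA), NF-kB (GGGA and TTTCC parted by 1 base) and E2F (TTTNNCGC). Among all 32851 promoters of that table, 3.44% held the ISRE letters, 7.81% the AP-1 letters, 0.411% the NF-kB letters and 5.17% the E2F letters. Cgas had 2 E2F matches, Tlr9 had 1 AP-1 match, and Samhd1, Tbk1, Mavs and Trex1 had none of the 4. Samhd1, Cgas and Tbk1 are printed because their mRNAs followed 3 different courses after stimulation. The stretches, read 5′ to 3′ on the minus strand, lie upstream of the start of the gene in both annotations, and capitals mark the E2F matches of Cgas, which do not overlap each other. A match of letters is no evidence that a factor binds there.
Samhd1, chr2:157135266-157135346: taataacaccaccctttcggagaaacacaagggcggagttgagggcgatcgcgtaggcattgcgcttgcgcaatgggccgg
Cgas, chr9:78443238-78443487: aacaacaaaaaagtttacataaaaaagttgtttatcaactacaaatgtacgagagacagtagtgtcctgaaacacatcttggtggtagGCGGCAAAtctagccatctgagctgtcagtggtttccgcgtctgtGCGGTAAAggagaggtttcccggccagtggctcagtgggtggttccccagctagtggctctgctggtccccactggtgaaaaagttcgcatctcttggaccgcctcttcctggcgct
Tbk1, chr10:121586795-121587044: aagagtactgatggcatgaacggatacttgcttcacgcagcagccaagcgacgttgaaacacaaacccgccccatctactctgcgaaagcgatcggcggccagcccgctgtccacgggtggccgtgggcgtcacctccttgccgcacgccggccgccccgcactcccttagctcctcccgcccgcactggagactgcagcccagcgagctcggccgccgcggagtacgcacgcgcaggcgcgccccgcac

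Levels can be compared between genes only per length, as RPKM, in which the CPM is divided by the summed exon length. This length is that of all annotated exons of a gene together, which can exceed the length of the mRNA present. On that scale Samhd1, with group means between 66.0 and 255 RPKM, was the most abundant member at 0, 3 and 6 h. Sting1 had 40.0 to 95.9 RPKM and was the most abundant at 24 h, where its means were 95.9 RPKM in WT and 94.1 RPKM in Aim2-/- cells beside 66.0 and 66.6 RPKM for Samhd1. That order rests on the exon lengths, 9150 bases for Samhd1 and 2741 for Sting1. In CPM, the WT means at 24 h were 603 for Samhd1 and 263 for Sting1, and the Aim2-/- means 609 and 258. Zbp1 had 15.2 to 93.0 RPKM and lay above Sting1 at 6 h, and Tbk1 had 17.7 to 35.8 RPKM. Mavs had 8.94 to 11.9 RPKM, Rnaseh2b 2.15 to 15.9 RPKM and Cgas 2.55 to 4.45 RPKM. Thus the receptor of cGAMP was present at a far higher mRNA level than the enzyme that makes it. Tlr9 had 0.113 to 0.477 RPKM and rested on 2 to 59 counts per library, near the floor, whereas no other tested member had fewer than 196 counts in a library.

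After stimulation, Zbp1, Samhd1, Sting1 and Cgas were higher in both genotypes by 3 h, and Tbk1 was lower from 6 h on. Rnaseh2b was 6.98-fold higher in WT cells by 24 h. No group held cells cultured for 3, 6 or 24 h without anti-CD3/CD28. Effects of the stimulation and of the culture therefore cannot be told apart. A member was called where the adjusted p of edgeR's quasi-likelihood test against 0 h was under 0.05. In WT cells 4 of the 8 tested members were called after 3 h, all of them higher, beside 32.6% of all 15325 genes tested (16.2% higher, 16.4% lower). After 6 h the WT cells had 5 members higher and 1 lower, or 6 called, beside 51.1% of all genes (26.4% higher, 24.8% lower), and after 24 h again 5 and 1, beside 71.4% (36.6% higher, 34.8% lower). The Aim2-/- cells had 4 members called after 3 h, all higher, beside 30.7% of all genes (16.1% higher, 14.6% lower). They had 6 higher and 1 lower after 6 h, beside 51.2% (28.5% higher, 22.7% lower), and 5 higher and 2 lower after 24 h, beside 70.3% (36.8% higher, 33.5% lower). The 6 and 7 of 8 members called at 24 h were near those shares. Between neighbouring times, 3 members were called from 3 to 6 h and 5 from 6 to 24 h in WT cells, beside 25.7% and 57.6% of all genes, and 1 and 5 in Aim2-/- cells, beside 23.3% and 54.3%. The median log2 fold change of the 8 members was 0.34, 0.53 and 0.51 in WT and 0.46, 0.55 and 0.47 in Aim2-/- cells, while the median over all genes stayed between -0.01 and 0.08. Scaling by library totals alone moved the calls over all genes at 3 h from 2476 higher and 2516 lower to 3357 and 1815 in WT cells, and from 2461 and 2237 to 3455 and 1529 in Aim2-/- cells, with a shift of the median over all genes to 0.12 and 0.13. Zbp1, Samhd1, Sting1 and Cgas were called in both genotypes at 3 h under that scaling too. In these bulk libraries a change in mRNA per cell and a change in the share of cells that hold it cannot be told apart.

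**Figure D1:**
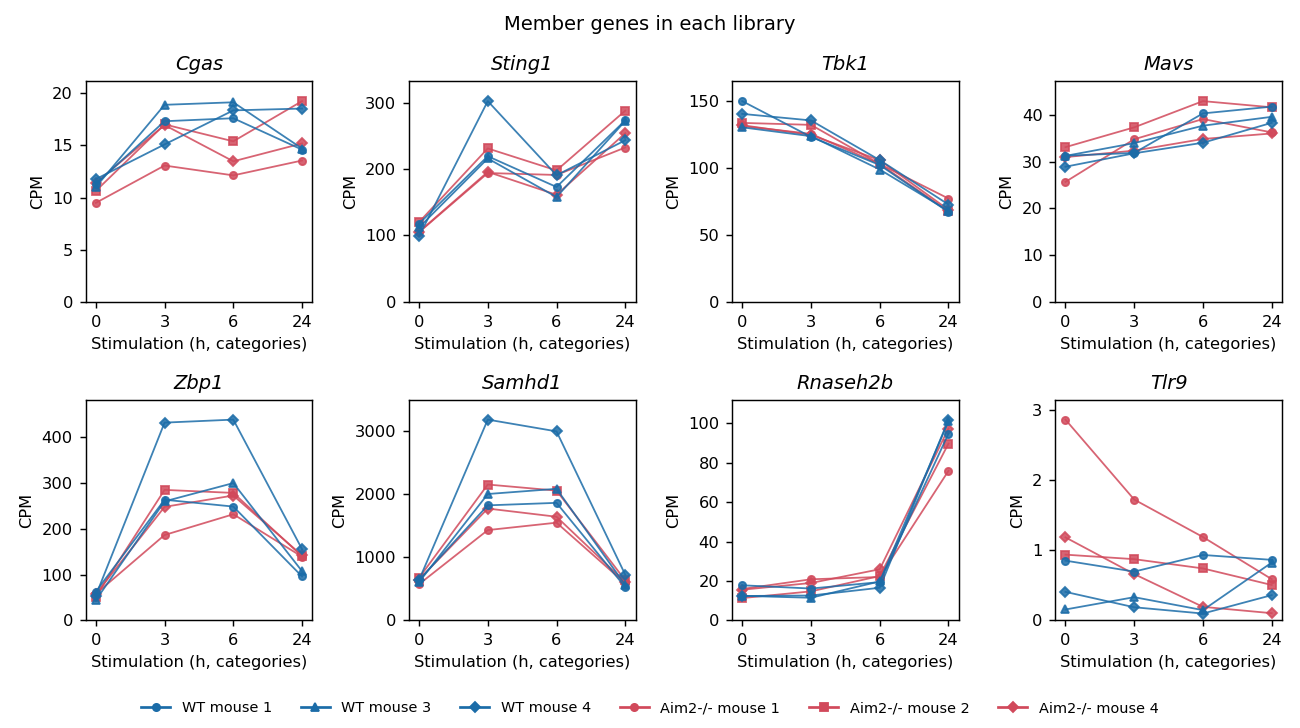
Level of each tested member in CPM (vertical axes, from 0, with a scale per gene) at 0, 3, 6 and 24 h (horizontal axes, times as evenly spaced categories), 1 line per mouse, WT in blue and Aim2-/- in red. Zbp1 and Samhd1 peak at 3 and 6 h with WT mouse 4 on top, Tbk1 declines, Rnaseh2b is high at 24 h only, and Tlr9 stays under 3 CPM.

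**Figure D2:**
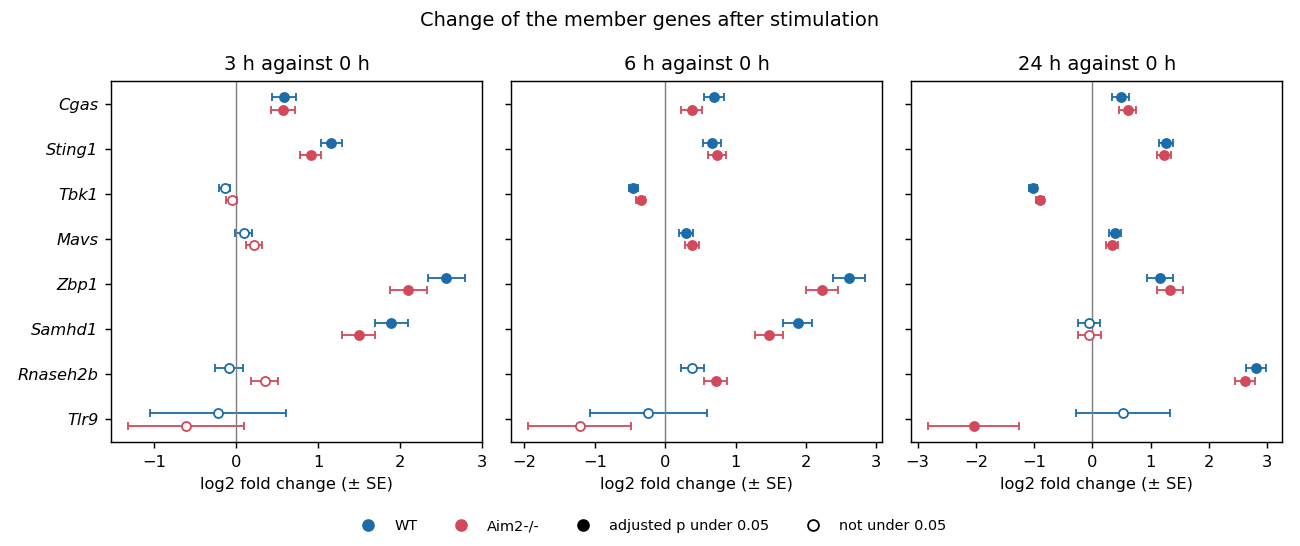
Log2 fold change against 0 h at 3, 6 and 24 h (horizontal axes) of the 8 tested members, for WT (blue) and Aim2-/- cells (red). Points are the fitted values, bars are ± 1 SE, and filled points have an adjusted p under 0.05. Both genotypes fall on the same side of 0 for every gene called in both.

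Cgas rose moderately. In WT mice 1, 3 and 4 it measured 11.3, 11.0 and 11.8 CPM at 0 h, 17.3, 18.9 and 15.1 CPM at 3 h, 17.6, 19.1 and 18.4 CPM at 6 h, and 14.6, 14.7 and 18.5 CPM at 24 h. In Aim2-/- mice 1, 2 and 4 it measured 9.49, 10.6 and 11.4 CPM at 0 h, 13.1, 17.0 and 16.9 CPM at 3 h, 12.1, 15.4 and 13.5 CPM at 6 h, and 13.5, 19.2 and 15.2 CPM at 24 h. Every stimulated library thus exceeded every unstimulated library of its genotype. The log2 fold change against 0 h in WT cells was 0.59 ± 0.15 (SE) after 3 h (adjusted p = 0.00361), 0.69 ± 0.15 after 6 h (adjusted p = 0.000447) and 0.49 ± 0.15 after 24 h (adjusted p = 0.00553). The Aim2-/- values were 0.58 ± 0.15 (adjusted p = 0.00496), 0.38 ± 0.15 (adjusted p = 0.0375) and 0.60 ± 0.15 (adjusted p = 0.00105). No change of Cgas between 3 and 6 h or between 6 and 24 h was called in either genotype. Without WT mouse 3 the WT values at 3 and 24 h were no longer called (adjusted p = 0.115 and 0.0538), nor was the value at 24 h without WT mouse 4 (adjusted p = 0.123), and the Aim2-/- value at 6 h lost its call under 7 of 12 alternatives (adjusted p up to 0.212).

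Sting1 (chr18:35733679-35740554, minus strand) rose at every time. In WT mice 1, 3 and 4 the levels were 118, 112 and 98.99 CPM at 0 h, 219, 216 and 302 CPM at 3 h, 173, 158 and 191 CPM at 6 h, and 273, 272 and 243 CPM at 24 h. The Aim2-/- levels (mice 1, 2 and 4) were 105, 120 and 105 CPM, then 194, 231 and 196 CPM, then 191, 198 and 161 CPM, and last 232, 288 and 254 CPM. The unstimulated libraries lay below all stimulated ones in both genotypes. The log2 fold changes in WT cells were 1.17 ± 0.13 at 3 h (adjusted p = 5.43e-07), 0.67 ± 0.13 at 6 h (adjusted p = 0.000138) and 1.26 ± 0.13 at 24 h (adjusted p = 1.31e-08). Those in Aim2-/- cells were 0.91 ± 0.13, 0.74 ± 0.13 and 1.23 ± 0.13 (adjusted p = 1.5e-05, 5.06e-05 and 2.32e-08). The WT course had 2 highs, since Sting1 fell by 0.50 ± 0.13 between 3 and 6 h (adjusted p = 0.00532) and rose by 0.60 ± 0.12 between 6 and 24 h (adjusted p = 0.00036). That fall was not called without WT mouse 4 (adjusted p = 0.0741), nor in Aim2-/- cells (-0.17 ± 0.13, adjusted p = 0.347), where the rise from 6 to 24 h was called (0.49 ± 0.12, adjusted p = 0.00232).

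Tbk1, the kinase downstream of both STING and MAVS, took the opposite course. It measured 150, 130 and 140 CPM at 0 h in WT mice 1, 3 and 4, 123, 123 and 135 CPM at 3 h, 102, 98.6 and 106 CPM at 6 h, and 66.9, 67.7 and 72.5 CPM at 24 h. In Aim2-/- mice 1, 2 and 4 the values were 131, 133 and 132 CPM, then 125, 132 and 124 CPM, then 103, 103 and 106 CPM, and 77.0, 67.4 and 68.6 CPM at 24 h. All libraries at 24 h lay below all libraries at 6 h, and those below all libraries at 3 and 0 h. Against 0 h, the log2 fold change in WT cells was -0.14 ± 0.07 at 3 h (adjusted p = 0.124), and Tbk1 fell by 0.45 ± 0.07 at 6 h (adjusted p = 7.14e-06) and by 1.02 ± 0.07 at 24 h (adjusted p = 2.13e-11), to 0.494 of its level at 0 h. For Aim2-/- cells it was -0.05 ± 0.07 at 3 h (adjusted p = 0.595), with falls of 0.35 ± 0.07 at 6 h (adjusted p = 0.000171) and 0.89 ± 0.07 at 24 h (adjusted p = 1.98e-10). The steps from 3 to 6 h and from 6 to 24 h were called in both genotypes (adjusted p between 4.5e-07 and 0.00326).

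Zbp1 had the largest change of the members at 3 and 6 h. It measured 62.7, 44.2 and 54.1 CPM at 0 h in WT mice 1, 3 and 4, then 263, 259 and 431 CPM at 3 h, 248, 299 and 438 CPM at 6 h, and 95.8, 107 and 155 CPM at 24 h. In Aim2-/- mice 1, 2 and 4 it measured 57.8, 52.0 and 57.6 CPM, then 186, 284 and 247 CPM, then 231, 278 and 272 CPM, and 139, 140 and 142 CPM at 24 h. The 3 and 6 h libraries of each genotype lay above its 24 h libraries, and these above its 0 h libraries. The WT level rose 5.92-fold at 3 h (log2 2.57 ± 0.23, adjusted p = 4.82e-08), 6.12-fold at 6 h (2.61 ± 0.23, adjusted p = 8.47e-09) and 2.22-fold at 24 h (1.15 ± 0.22, adjusted p = 9.29e-05). The Aim2-/- rises were 4.29-fold (2.10 ± 0.23, adjusted p = 7.87e-07), 4.67-fold (2.22 ± 0.23, adjusted p = 9.36e-08) and 2.51-fold (1.33 ± 0.22, adjusted p = 1.95e-05). The change from 3 to 6 h was not called in either genotype, and the fall from 6 to 24 h was called in both (by 1.46 ± 0.22 in WT and 0.89 ± 0.22 in Aim2-/- cells, adjusted p = 9.99e-06 and 0.00168).

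Samhd1 rose and came back. Its WT levels (mice 1, 3 and 4) were 640, 607 and 639 CPM at 0 h, 1823, 2003 and 3181 CPM at 3 h, 1862, 2085 and 2995 CPM at 6 h, and 526, 561 and 723 CPM at 24 h. The Aim2-/- levels (mice 1, 2 and 4) were 574, 674 and 647 CPM, then 1431, 2153 and 1772 CPM, then 1548, 2056 and 1642 CPM, and 587, 634 and 606 CPM. The 24 h libraries overlapped the 0 h libraries, and all 3 and 6 h libraries lay above both. The rise in WT cells was 3.72-fold at 3 h (log2 1.89 ± 0.20, adjusted p = 4.57e-07) and 3.68-fold at 6 h (1.88 ± 0.20, adjusted p = 1.23e-07), and in Aim2-/- cells 2.83-fold (1.5 ± 0.20, adjusted p = 1e-05) and 2.77-fold (1.47 ± 0.20, adjusted p = 3.59e-06). At 24 h the log2 fold change against 0 h was -0.06 in WT cells (95% interval -0.47 to 0.35) and -0.05 in Aim2-/- cells (-0.46 to 0.36), with adjusted p of 0.802 and 0.822.

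WT mouse 4 stood above the other WT mice for Zbp1 and Samhd1 at 3, 6 and 24 h and for Sting1 at 3 and 6 h. It also had the highest sum of 13 interferon genes (12 interferon-stimulated genes and Ifnb1) in WT cells at 3 h (2419 CPM beside 1677 and 1745) and at 6 h (2076 CPM beside 1369 and 1519). Without this mouse the WT log2 fold change at 3 h was 2.26 for Zbp1, 1.59 for Samhd1 and 0.89 for Sting1, and at 6 h it was 2.33, 1.64 and 0.50, all still called. Without WT mouse 1, whose libraries go against their label, these values were 2.81, 2.06 and 1.29 at 3 h and 2.91, 2.03 and 0.72 at 6 h, also called. Leaving out WT mouse 1 changed 2 of the members' stimulation calls in WT cells, those of Mavs and Rnaseh2b at 6 h.

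Of the 13 interferon genes of that list, 12 were tested. In each genotype 9 rose and none fell at 3 h and again at 6 h, beside the shares of all genes given above (16.2% higher at 3 h and 26.4% at 6 h in WT cells), with median log2 fold changes of 1.76 and 2.16 in WT and 1.55 and 1.73 in Aim2-/- cells. At 24 h 4 were higher and 4 lower than at 0 h in WT cells, and 3 and 3 in Aim2-/- cells. The genes with the largest values in WT cells at 3 h were Usp18, which removes the ubiquitin-like protein ISG15 (3.30), the antiviral proteins Ifit3 (2.74) and Ifit1 (2.59), and Rtp4 (2.46). Ifnb1, the gene of interferon beta, had group means of 0 to 0.03 CPM, below the floor. Over the 24 libraries, which share mice, the genes whose log2 CPM was most like that of Zbp1 were Ifit3b (Pearson r = 0.976), Usp18 (0.976) and Gbp11 (0.973), and those most like Samhd1 were Slfn8 (0.989), Slfn5 (0.986) and Rtp4 (0.980). Zbp1 and Samhd1 correlated with r = 0.882, and the plot of both genes beside the summed list shows where they part: at 24 h Zbp1 was still above its level at 0 h while the Samhd1 groups overlapped.

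**Figure D3:**
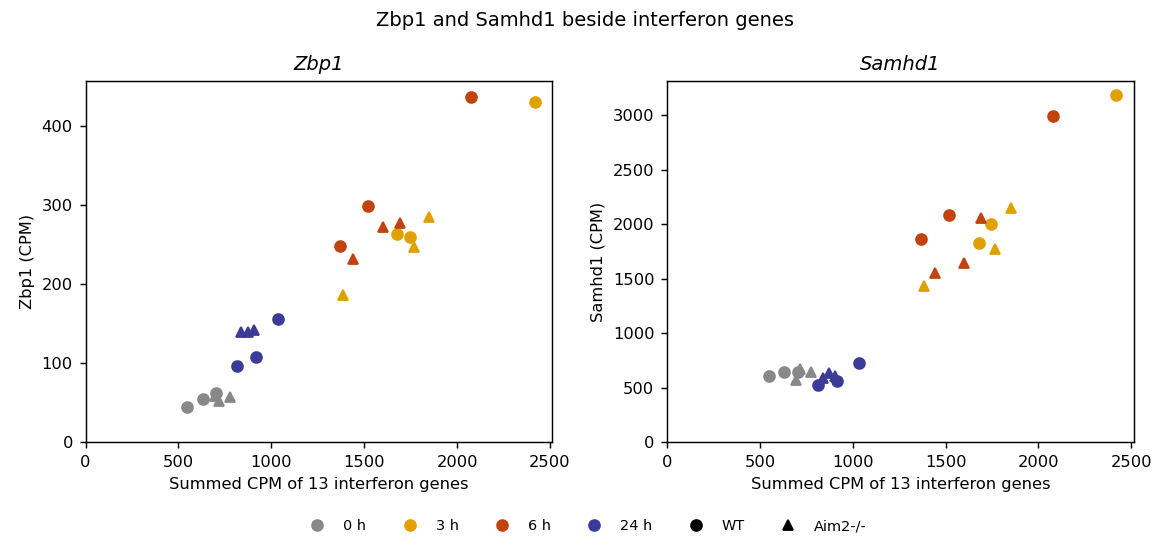
Zbp1 (left) and Samhd1 (right) in CPM (vertical axes) against the summed CPM of 13 interferon genes, namely 12 interferon-stimulated genes and Ifnb1 (horizontal axes), 1 point per library, coloured by time, with circles for WT and triangles for Aim2-/- cells. WT mouse 4 at 3 and 6 h gives the 2 points at the upper right of each panel, with sums of 2419 and 2076 CPM.

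Rnaseh2b was the member that changed late. It measured 17.8, 12.5 and 12.4 CPM at 0 h in WT mice 1, 3 and 4, 16.2, 11.5 and 12.6 CPM at 3 h, 19.4, 19.8 and 16.6 CPM at 6 h, and 94.8, 101 and 102 CPM at 24 h. In Aim2-/- mice 1, 2 and 4 it measured 15.9, 11.3 and 15.6 CPM, then 20.8, 14.7 and 19.0 CPM, then 22.0, 22.5 and 25.9 CPM, and 75.9, 89.7 and 97.3 CPM at 24 h. The 24 h libraries stood apart from all others. The rise over 0 h was 6.98-fold in WT (log2 2.80 ± 0.17, adjusted p = 6.3e-12) and 6.14-fold in Aim2-/- cells (2.62 ± 0.17, adjusted p = 2.25e-11). At 6 h it was 0.39 ± 0.17 in WT (adjusted p = 0.0586, 0.0204 with mouse as a block, and 0.0201 at a value of 0.55 without the mouse labelled WT 1) and 0.72 ± 0.17 in Aim2-/- cells (adjusted p = 0.00106). The genes of the other subunits of the same complex, picked out after their values were seen, also rose at 24 h, Rnaseh2a by 1.48 in WT and 1.40 in Aim2-/- cells and Rnaseh2c by 1.11 and 1.24 (adjusted p at most 4.4e-07). The genes most like Rnaseh2b over the 24 libraries were Tipin, whose protein acts at replication forks (r = 0.989), Rtca (0.989) and Ppil1 (0.988).

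Mavs changed little. It lay at 31.3, 31.2 and 28.9 CPM at 0 h in WT mice 1, 3 and 4, 31.9, 34.0 and 31.8 CPM at 3 h, 40.3, 37.7 and 34.0 CPM at 6 h, and 41.8, 39.6 and 38.3 CPM at 24 h. In Aim2-/- mice 1, 2 and 4 it lay at 25.7, 33.1 and 31.0 CPM, then 34.8, 37.3 and 32.3 CPM, then 39.1, 42.9 and 34.8 CPM, and 36.2, 41.6 and 36.0 CPM. Both genotypes overlapped at each time. Against 0 h the WT rise was 1.23-fold at 6 h (log2 0.29 ± 0.10, adjusted p = 0.0194) and 1.31-fold at 24 h (0.39 ± 0.10, adjusted p = 0.00182), and the Aim2-/- rise 1.30-fold (0.38 ± 0.10, adjusted p = 0.00341) and 1.27-fold (0.34 ± 0.10, adjusted p = 0.00496). Without the mouse labelled WT 1 the WT rise at 6 h was 0.26 (adjusted p = 0.135), and it was also lost without either other WT mouse. Without Aim2-/- mouse 1 the Aim2-/- rises were no longer called, with adjusted p of up to 0.075 at 6 h and up to 0.076 at 24 h over all alternatives.

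Tlr9 was near the floor. It measured 0.85, 0.16 and 0.41 CPM at 0 h in WT mice 1, 3 and 4, 0.69, 0.33 and 0.19 CPM at 3 h, 0.93, 0.15 and 0.10 CPM at 6 h, and 0.86, 0.82 and 0.36 CPM at 24 h. In Aim2-/- mice 1, 2 and 4 it measured 2.86, 0.94 and 1.18 CPM, then 1.72, 0.87 and 0.66 CPM, then 1.19, 0.74 and 0.19 CPM, and 0.59, 0.50 and 0.10 CPM. Aim2-/- mouse 1, with 59 counts at 0 h, was highest at 0, 3 and 6 h. No change was called in WT cells (95% interval at 24 h -1.15 to 2.20). In Aim2-/- cells the value at 24 h was 2.04 ± 0.78 lower than at 0 h (adjusted p = 0.0253, and 0.000703 with mouse as a block), and the call was lost without Aim2-/- mouse 1 (adjusted p = 0.109), without mouse 4 (adjusted p = 0.0853) and with a B cell score in the model (-1.35, adjusted p = 0.0936). In the same Aim2-/- libraries the summed B cell markers were at 17.8 to 49.7 CPM at 0 h and at 6.10 to 29.3 CPM at 24 h, and the myeloid markers at 102 to 370 and at 24.6 to 181 CPM. The 5 markers of conventional dendritic cells summed to 24.1 to 60.2 CPM at 0 h and to 7.00 to 19.1 CPM at 24 h there. Only as a sum did the 6 markers of plasmacytoid dendritic cells go the other way, from 58.0 to 81.6 CPM at 0 h to 173 to 214 CPM at 24 h. Of the 5 tested, 2 were called higher and 2 lower at 24 h in Aim2-/- cells, with a median log2 fold change of -1.66. Beside them, 36.8% of all genes were higher and 33.5% lower. Most of that sum came from Bst2, an interferon-induced membrane protein (up to 173 CPM in any library), and Pacsin1 (up to 110 CPM). Of the others on that list, Siglech, a defining marker, reached at most 1.72 CPM in any library, and Klk1 was at 0 in all libraries at 24 h. The genes most like Tlr9 were Cobll1 (r = 0.882), Itgb1 (0.864) and Lclat1 (0.848). In every mouse the sum of the B cell markers was lower at 24 h than at 0 h, so a fit with the B cell score cannot tell time and B cell content apart. The part of other cell types in the Tlr9 counts was not tested.

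**Figure D4:**
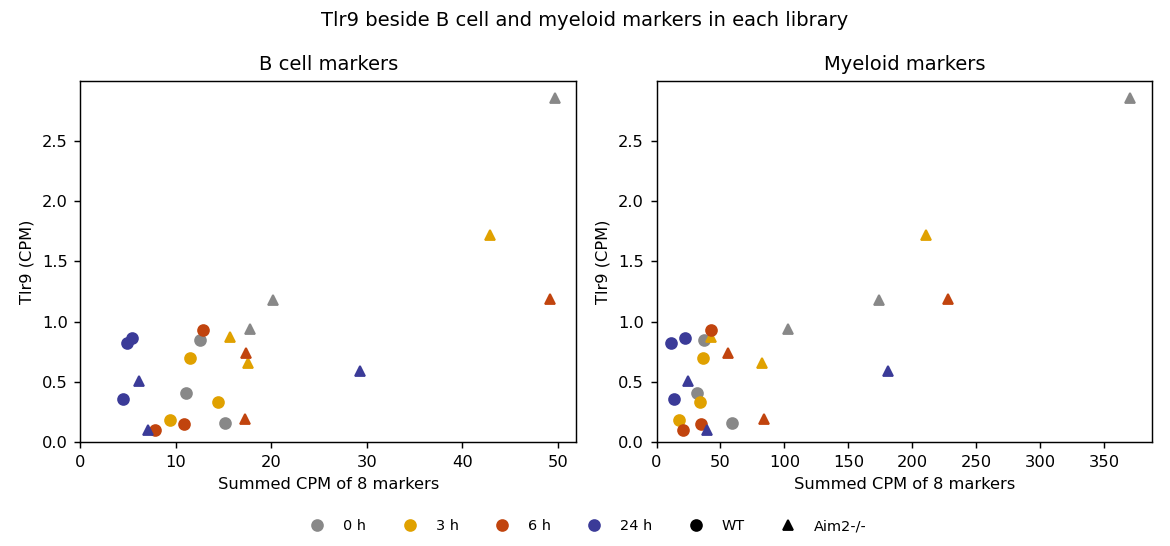
Tlr9 in CPM (vertical axes) against the summed CPM of 8 B cell markers (left) and 8 myeloid markers (right), 1 point per library, coloured by time, with circles for WT and triangles for Aim2-/- cells. The highest Tlr9 value, 2.86 CPM, belongs to Aim2-/- mouse 1 at 0 h, which also has the highest sums, 49.7 and 370 CPM.

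For the remaining members likeness was taken over the same 24 libraries. Cgas was closest to Wiz (r = 0.931), Dhx33 (0.922) and Urb1 (0.916), Sting1 to Myd88 (0.946), Prkca (0.932) and Rbl1 (0.928), Tbk1 to Pde4b (0.987), Ankrd12 (0.987) and Akap13 (0.986), and Mavs to Zscan22 (0.869), Vps45 (0.863) and Fastkd1 (0.861). Among the members themselves, Tbk1 and Rnaseh2b ran most strongly against each other (r = -0.947), and Cgas and Sting1 had r = 0.691.

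The partners of these genes moved in both directions, and their counts stand beside the shares of all genes called at 3, 6 and 24 h, which were 16.2%, 26.4% and 36.6% higher and 16.4%, 24.8% and 34.8% lower in WT cells, and 16.1%, 28.5% and 36.8% higher and 14.6%, 22.7% and 33.5% lower in Aim2-/- cells. Of 21 tested partners of the STING pathway, 7 rose and 6 fell in WT cells at 3 h, 5 and 7 at 6 h, and 4 and 13 at 24 h. The Aim2-/- counts were 6 and 4, 6 and 6, and 4 and 13. Without the mouse labelled WT 1 the WT counts were 6 and 3 after 3 h, 5 and 6 after 6 h, and 4 and 13 after 24 h, beside 10.9% of all genes higher and 11.6% lower after 3 h. The shares of all genes after 6 and 24 h without that mouse are not given here. Those named at the head of the paragraph are from the fit with all mice. The median at 24 h was -0.68 in WT and -0.64 in Aim2-/- cells. The TBK1 adaptor Tbkbp1 rose by 3.57, 3.85 and 4.52 in WT cells at 3, 6 and 24 h, and Slc19a1, a carrier of folates that also imports cyclic dinucleotides, by 2.06, 3.39 and 3.67. Enpp1, which degrades cGAMP outside the cell, fell by 1.47, 2.20 and 3.41. Ikbke, a kinase related to TBK1, fell by 1.86 at 24 h in WT cells, and Irf7, which encodes an interferon regulatory factor, rose by 1.57 at 3 h. Thus Tbk1 and Ikbke were both lower at 24 h than at 0 h in WT cells, and Sting1 was higher.

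Of 15 tested nucleases and enzymes of nucleotide handling, 3 rose and 2 fell at 3 h in WT cells, 3 and 4 at 6 h, and 5 and 6 at 24 h. In WT cells at 24 h, 36.6% of all genes were higher and 34.8% lower. The shares of all genes given above stand beside every count of this and the following lists. In Aim2-/- cells 2 rose and 1 fell at 3 h, 6 and 4 at 6 h, and 5 and 7 at 24 h. The WT count at 3 h without the mouse labelled WT 1 was 1 higher and 2 lower. The extracellular nuclease Dnase1l3 had the value farthest from 0 in WT cells at 24 h (-4.56), followed by Dut, which hydrolyses dUTP (3.99), and Banf1, a protein that coats DNA (2.58). Dnase1l3 had a mean of 27.1 ± 23.6 CPM in unstimulated WT cells and of 1.14 ± 0.301 CPM at 24 h (SD, n = 3 each). In the same WT libraries the sum of the myeloid markers was 31.7 to 58.9 CPM at 0 h and 11.0 to 22.1 CPM at 24 h, that of the B cell markers 11.1 to 15.1 and 4.52 to 5.37 CPM, and that of the conventional dendritic cell markers 14.1 to 19.6 and 3.85 to 5.52 CPM, and the part of those cells in the Dnase1l3 value was not tested. The RNA-editing enzyme Adar rose by 0.71 at 3 h. The median of these genes at 24 h was -0.36 in WT and -0.43 in Aim2-/- cells, beside -0.01 and 0.03 over all genes. Of 10 genes of RNA sensing through MAVS, 4 rose and 2 fell at 3 h in WT cells, 3 and 2 at 6 h, and 2 and 4 at 24 h, and in Aim2-/- cells 3 and 2, 4 and 2, and 2 and 4. Here the RNA-binding proteins Eif2ak2 (1.34), Dhx58 (1.07) and Ifih1 (0.81) rose at 3 h in WT cells, while Ddx58, the gene of RIG-I, fell by 2.55 at 24 h, and the median went from 0.34 at 3 h to -0.14 at 24 h. Of 4 partners of ZBP1, 3 rose in WT cells at each time, and in Aim2-/- cells 2, 3 and 3 rose and 1 fell at 6 h. The necroptosis effector Mlkl rose by 1.46, 1.87 and 3.04 in WT cells, and the median of the 4 at 24 h was 1.15 in WT and 1.08 in Aim2-/- cells. Of 15 tested genes of endosomal Toll-like receptor signalling, 4 rose and 4 fell at 3 h in WT cells, 5 and 4 at 6 h, and 5 and 5 at 24 h, and in Aim2-/- cells 4 and 4, 6 and 5, and 4 and 7. In WT cells at 3 h, 2 of these genes rose and 4 fell without the mouse labelled WT 1. The adaptor Myd88 rose by 0.82 at 3 h in WT cells and the lysosomal protease Lgmn fell by 3.28 at 24 h, where the median was -0.18 in WT and -0.41 in Aim2-/- cells. The marker sums given above for Dnase1l3 are from the same WT libraries. The part of those cells in the Lgmn value was not tested.

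Between the genotypes edgeR called no member at 0, 3, 6 or 24 h, none in the 3 tests of a difference in response, and none with the 4 libraries of each mouse added up. At these 4 times, in that order, 5.23%, 0.294%, 15.8% and 0.666% of all genes were called. It was 0%, 0.0261% and 0% for the difference in the 3, 6 and 24 h response, and 0.0117% of 17163 genes for the added libraries. With unadjusted p under 0.05, 1 member would have been named at 0 h (Tlr9), 1 at 3 h (Rnaseh2b), 1 at 6 h (Cgas), 1 in the 24 h response (Tlr9), and none elsewhere. Such a p was found for 3649, 2350, 5225 and 1825 of all 15325 genes in those comparisons, in that order. DESeq2 called 1 member, Cgas at 6 h, and limma-voom the same one. With 3 mice against 3, a p above the threshold does not show equal levels, and the 95% intervals are given. These intervals at each time rest on the fit of all 24 libraries, which holds no term for the mouse.

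For Tbk1 the 95% intervals of the log2 difference (Aim2-/- against WT) lay within -0.22 to 0.18 at all 4 times, and for Mavs within -0.28 to 0.31. For Sting1 the difference was 0.01 at 0 h (interval -0.25 to 0.27) and -0.25 at 3 h (-0.51 to 0.01, adjusted p = 0.344), the latter -0.08 without WT mouse 4 and -0.33 without the mouse labelled WT 1. Samhd1 was 0.39 lower in Aim2-/- cells at 3 h (interval -0.80 to 0.02, adjusted p = 0.349) and 0.40 lower at 6 h (-0.81 to 0.01, adjusted p = 0.152), and Zbp1 0.41 lower at 3 h (-0.86 to 0.04, adjusted p = 0.363) and 0.33 lower at 6 h (-0.78 to 0.12, adjusted p = 0.281). Groups overlapped for both genes. Without WT mouse 4 Samhd1 differed by -0.11 at 3 h and -0.22 at 6 h, and Zbp1 by -0.13 and -0.12. Without the mouse labelled WT 1 the differences were wider, -0.54 and -0.54 for Samhd1 and -0.53 and -0.50 for Zbp1, with adjusted p between 0.0855 and 0.177.

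Cgas at 6 h came closest to a call. It was 13.7 ± 1.64 CPM (SD, n = 3) in Aim2-/- and 18.4 ± 0.764 CPM (SD, n = 3) in WT cells, and the 2 groups did not overlap, as those of Rnaseh2b did not, in the other direction. Not overlapping at 6 h was found in 35.6% of all genes. The log2 difference was -0.43 ± 0.15 (95% interval -0.73 to -0.12, adjusted p = 0.0508). Over the alternatives it ranged from -0.52 to -0.32 with adjusted p from 0.018 to 0.156. It was called with the mouse as a random block (adjusted p = 0.0318), and it was -0.46 without the mouse labelled WT 1 (adjusted p = 0.0919) and -0.32 with a B cell score in the model (adjusted p = 0.144). At 24 h the difference was 0.00 (interval -0.30 to 0.31), and the genotype difference in the 6 h response of Cgas was -0.32 (-0.75 to 0.12, adjusted p = 0.548).

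Rnaseh2b was 0.44 ± 0.17 higher in Aim2-/- cells at 3 h (interval 0.09 to 0.78, adjusted p = 0.229) and 0.34 ± 0.16 higher at 6 h (adjusted p = 0.15). Without the mouse labelled WT 1 the value at 3 h was 0.59 (adjusted p = 0.066), and without Aim2-/- mouse 2 it was called (adjusted p = 0.0479). Tlr9 at 0 h was 1.80 ± 0.77 higher in Aim2-/- cells (interval 0.20 to 3.40, adjusted p = 0.159), and all 3 Aim2-/- libraries lay above the 3 WT libraries (28.5% of all genes did not overlap at 0 h). Without Aim2-/- mouse 1 it was 1.16 (adjusted p = 0.521), with a B cell score 0.99 (adjusted p = 0.446), and 2.54 without the mouse labelled WT 1 (adjusted p = 0.0746). Leaving out that mouse also moved the Tlr9 difference at 3 h from 1.41 to 2.05 (adjusted p = 0.387 and 0.176) and at 6 h from 0.82 to 2.48 (adjusted p = 0.491 and 0.087), with no call. The genotype difference in the 24 h response of Tlr9 was -2.56 ± 1.12 (adjusted p = 0.366, and -2.68 with adjusted p = 0.0479 with mouse as a block). All Aim2-/- libraries had higher sums of B cell and of myeloid markers than all WT libraries of the same time. For any member, a fit with the B cell score therefore cannot tell genotype and B cell content apart. The part of those cells in these differences was not tested.

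**Figure D5:**
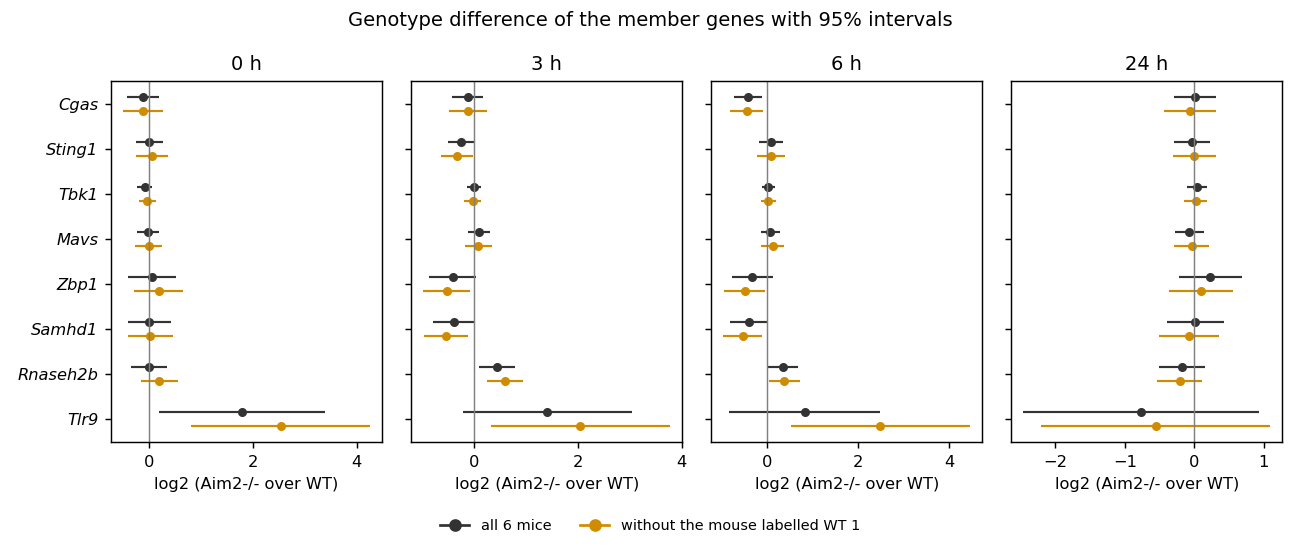
Log2 difference of Aim2-/- against WT cells (horizontal axes, scale per panel) for the 8 tested members at 0, 3, 6 and 24 h, with 95% intervals, for all 6 mice (black) and without the mouse labelled WT 1 (orange). Intervals of Tbk1 and Mavs are the narrowest and include 0 at all times, and those of Tlr9 are the widest.

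Among the partner lists, most calls between genotypes were at 6 h. At 6 h, where 15.8% of all genes were called (8.78% higher and 7.01% lower), 2 of the 21 STING partners were higher and 4 lower in Aim2-/- cells, led by the autophagy receptor Optn (1.18, adjusted p = 0.038), Slc19a1 (-0.70, adjusted p = 0.043), the ubiquitin ligases Trim56 (-0.61, adjusted p = 0.040) and Rnf5 (0.59, adjusted p = 0.0064). Of the nucleases, 3 were higher at 6 h, Dnase2a (0.71), Dut (0.65) and Rnaseh2c (0.42). Mlkl (1.35) and Rnf135 (0.72) were also higher at 6 h. Without the mouse labelled WT 1, where 7.83% of all genes were higher and 3.62% lower at 6 h, the STING partners had 3 higher and 1 lower and the nucleases 2 higher. Optn (1.44, adjusted p = 0.0297), Rnf5 (0.57, adjusted p = 0.0154), Dnase2a (0.84, adjusted p = 0.0294), Mlkl (1.64, adjusted p = 0.0367) and Rnf135 (0.87, adjusted p = 0.0322) were then still called. Slc19a1 (-0.71, adjusted p = 0.0959), Trim56 (-0.65, adjusted p = 0.0653), Dut (0.64, adjusted p = 0.0671) and Rnaseh2c (0.30, adjusted p = 0.142) were not. At 6 h the myeloid markers summed to 20.4 to 42.2 CPM in WT and 56.2 to 228 CPM in Aim2-/- libraries. The B cell markers summed to 7.84 to 12.9 and 17.2 to 49.2 CPM. The part of those cells in these differences at 6 h was not tested.

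Unc93b1, which carries TLR9 and other endosomal receptors to their compartment, was 1.15 higher in Aim2-/- cells at 0 h (adjusted p = 0.035) and 1.08 higher at 6 h (adjusted p = 0.023), and the values without the mouse labelled WT 1 were 1.27 and 1.2 (adjusted p = 0.0479 and 0.0403). Its mean was 13.4 ± 1.90 CPM in WT and 29.9 ± 12.6 CPM in Aim2-/- cells at 0 h (SD, n = 3 each), where 5.23% of all genes were called. At 0 h the B cell markers summed to 11.1 to 15.1 CPM in WT and 17.8 to 49.7 CPM in Aim2-/- libraries, the myeloid markers to 31.7 to 58.9 and 102 to 370 CPM, and the conventional dendritic cell markers to 14.1 to 19.6 and 24.1 to 60.2 CPM. The part of those cells in the Unc93b1 difference was not tested. Among the interferon-stimulated genes, Cxcl10, a chemokine, was 2.09 higher at 24 h, where 0.666% of all genes were called, and it was not called without the mouse labelled WT 1 (2.09, adjusted p = 0.0618). Its mean was 4.70 ± 1.1 CPM in WT and 20.1 ± 14.7 CPM in Aim2-/- cells (SD, n = 3 each). The myeloid markers at 24 h summed to 11.0 to 22.1 CPM in WT and 24.6 to 181 CPM in Aim2-/- libraries, and their part in that difference was not tested. No gene of any list was called in the 3 tests of a difference in response.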

How the data were processed

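Per the labels and the methods of the study, CD4+ T cells were enriched from spleens by immunomagnetic depletion of other cells, stranded mRNA libraries were made, and the reads were aligned by the authors to GRCm38 with STAR. The study's paper reports RNA sequencing of naïve cells and of cells cultured for regulatory T cell differentiation. It does not describe this time course, so its general methods were used here. The deposited values are raw counts of reads for each gene, with no normalization. Whether counting used the strand is not given in the sources used here. Symbols matched 54409 of 54446 identifiers. The 9 members, the gene lists, the 4 motifs and the tests were chosen with earlier results of these data known. The rule for named genes was the 9 members, up to 4 called genes with the largest change per list and comparison (at least 1 CPM in the higher group), and for each member the 3 genes most like it. Results for 1 gene of these lists, and 1 motif, are not reported here.

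All 24 libraries entered 1 edgeR (4.0.16) quasi-likelihood model with 8 group means, TMM factors and filterByExpr (minimum count 10), which kept 15325 genes; log2 fold changes carry SE from the fit, and adjustment was by Benjamini and Hochberg's method over all genes. CPM used TMM-scaled library sizes, likeness used log2 CPM with a prior count of 2, and RPKM used summed exon length. Alternatives were RLE or library totals as scaling, no filter, a mean of at least 1 CPM, only the libraries compared, a B cell score, each mouse left out, mouse as a block, limma-voom (3.58.1) and DESeq2 (1.42.0). Libraries of a mouse are paired by the labels: 36 same-mouse pairs correlated with r from 0.139 to 0.567 in their deviations from group means, and 72 pairs of different mice with r from -0.432 to 0.0742. Depth and floors cover counting error only.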

Additional observations from a re-analysis of the deposited data

How the results depend on the processing

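No result changed direction while called. Counting each member's comparison under each alternative, 533 values on stimulation kept their side of the threshold, 25 lost a call and 10 gained a call. For neighbouring times the numbers were 370, 8 and 1, for the genotype at a time or summed 571, 0 and 8, and for the difference in response 354, 0 and 1. The cause was not tested. From 3 to 6 h in WT cells, leaving out a mouse gave 1 to 3 called members, 1 without WT mouse 4, and in Aim2-/- cells the count was 0 with only the libraries compared and 2 with mouse as a replicate block. For Aim2-/- against WT at 3 h, leaving out a mouse gave 0 to 1. At 6 h it gave 0 to 1, and the count was 1 with RLE factors, without a filter (Samhd1), with a minimum mean of 1 CPM, with limma-voom, with mouse as a random replicate block and with DESeq2 (Cgas in each but the unfiltered fit). The 24 h difference in response gave 1 call with the replicate block (Tlr9). The block also called Rnaseh2b at 6 h in WT and from 3 to 6 h in Aim2-/- cells (adjusted p = 0.0204 and 0.0381), Mavs at 3 h and Tlr9 at 6 h in Aim2-/- cells (adjusted p = 0.0364 and 0.0181), and changed no other call. Of the group levels, 130 moved by less than the SD between mice under other scalings and 14 by more. Low counts limit Tlr9, and leaving out a mouse left groups of 2.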
